A study of Mus musculus with 10 samples.

Results

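The 5 glands described here came from lactating mice of the inbred strain BALB/c and had received phosphate-buffered saline (PBS) through the teat. They are 5 of the 10 mammary gland libraries of the series. They were chosen by their treatment label alone, and all genes of the deposited expression table were used. Per the labels, 50 µL of sterile PBS was given into a gland of the 4th pair on day 3 of lactation, and the gland was collected 12 h after injection. The gland on the other side of the pair received 50 µL of the bacterial endotoxin lipopolysaccharide (LPS) at 0.4 mg/mL, so each PBS gland lay in an animal whose other gland was exposed to LPS. The 5 LPS libraries were not compared with the PBS libraries here. The labels give n = 9 animals, do not tie the libraries to animals, and name no uninjected gland, so the spread below is that between 5 labelled samples of whole tissue. All mice carried the same strain label, and no genetic change or Cre line is given.

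In lactation, alveolar epithelial cells of the mammary gland make milk proteins, milk fat and lactose under the control of prolactin, which acts through its receptor, the kinase JAK2 and the transcription factor STAT5. Caseins are the proteins of the milk micelle, and whey acidic protein and alpha-lactalbumin are whey proteins. The same epithelium can secrete acute phase and antimicrobial proteins such as serum amyloid A and lipocalin 2, which are known as local responses to bacterial products and to milk stasis. Around the alveoli lie contractile myoepithelial cells, fat cells, fibroblasts, vessels and leukocytes, and the fourth gland of the mouse also holds a lymph node.

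Values are FPKM as deposited by the authors, that is, fragments divided by the length of the gene and by the number of counted reads of the library. Each library held 15734303 to 18083081 counted reads. The table lists 35275 genes, of which 21882 were above 0 in at least 1 PBS gland, 13393 were at 0 in all 5, and 11551 had a mean of at least 1 FPKM. Between 10979 and 12208 genes per gland reached 1 FPKM. Across those 11551 genes, log2(FPKM + 1) in pairs of glands had Pearson correlations from 0.959 (glands 2 and 5) to 0.982 (glands 3 and 5), given as a description since genes are not independent and all glands share the same few abundant genes.

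The tissue label was checked first against Csn2, the gene of beta-casein, and Wap, the gene of whey acidic protein. FPKM of Wap in glands 1 to 5, in that order here and below, was 80274, 63719, 61239.8, 79990.3 and 69211. FPKM of Csn2 was 60867, 46791, 50976, 58878 and 65949. Both defining genes of lactating tissue were thus among the 3 most abundant genes of every gland. Saa3, a serum amyloid A gene known as a marker of inflamed mammary epithelium, stood at 18100.5, 21588, 30241, 18599.95 and 21733 FPKM, so that these saline-injected glands carried this transcript at rank 5 to 8. In whole tissue, a lower level of a transcript cannot be told apart from fewer cells that hold it.

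Few genes held most of the measured transcript. Wap was the most abundant gene of all 5 glands, with 9.48 to 12.1% of summed FPKM. The 10 most abundant genes were the same in all glands and held 57.5, 51.1, 52.6, 54.4 and 58.6% of summed FPKM. They were Wap, 4 caseins, Glycam1, 3 serum amyloid A genes and Fth1. It took 7, 10, 9, 9 and 7 genes to reach 50% of summed FPKM, and 115, 280, 192, 176 and 110 genes to reach 75%. Gland 2 therefore had the most even distribution and glands 1 and 5 the most concentrated. FPKM divides by gene length, and counted in recovered reads instead, a mean of 78.6 ± 44.8 genes (SD, n = 5) held 50% of the library. Of the 50 most abundant genes of each gland, 40 were shared by all 5 glands and 63 appeared in at least 1.

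**Figure D1:**
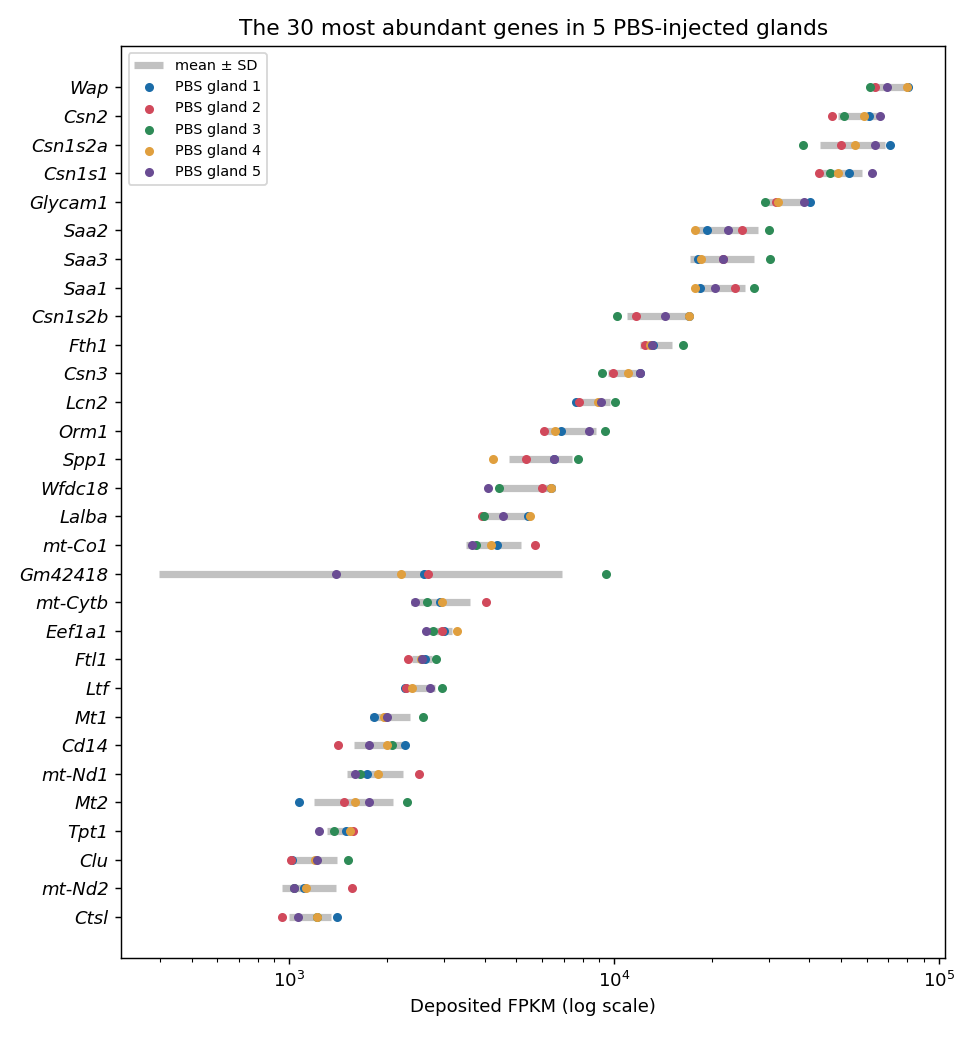
FPKM (log scale) of the 30 most abundant genes, with a point per PBS gland and a grey bar for the mean ± SD over 5 glands. Wap leads in every gland, the 3 abundant Saa genes overlap each other, and Gm42418 has 1 gland at 9435 FPKM while the others lie between 1393 and 2681.

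Order within the ranking was settled at the top and interchangeable only in part just below it. Wap exceeded Csn2 in all 5 glands. Csn1s2a, which encodes alpha-S2-casein, was at 70860.01, 49988, 38303, 55238 and 63793 FPKM, above Csn2 in glands 1 and 2 and below it in glands 3, 4 and 5. Csn1s1, which encodes alpha-S1-casein, was at 52915, 42711, 46349, 48821 and 62308 FPKM. It was below Csn2 in all 5 glands and above Csn1s2a in gland 3 only. Glycam1, a mucin-like milk protein, followed with 40287, 31634, 29233, 31888 and 38556 FPKM and was above every Saa gene in 4 of 5 glands, gland 3 being the exception. Saa1, Saa2 and Saa3 exchanged ranks between glands. Within a gland the ratio to Saa3 was 1.04 ± 0.0732 for Saa2 and 0.980 ± 0.0753 for Saa1 (SD, n = 5). Saa1 was below Saa2 in every gland but gland 4.

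The 5 caseins held 28.4% ± 3.82 of summed FPKM (SD, n = 5). The share in the single glands was 31.4, 25.03, 23.99, 28.96 and 32.7%, highest in glands 5 and 1 and lowest in glands 3 and 2. After median-of-ratios scaling, which centres the glands on their typical gene, glands 2 and 3 remained the lowest pair, with gland 2 below gland 3 (summed values 229611, 138738, 152061, 187079 and 241428). The casein genes lie together on chromosome 5, from 87666208 to 87932665 in build GRCm38 (the same assembly as mm10, the authors' build), in the order Csn1s1, Csn2, Csn1s2a, Csn1s2b and Csn3. Csn1s2b, a second alpha-S2-type casein, was less abundant, at 16978, 11720.1, 10184, 16967 and 14385 FPKM. Csn3, the micelle-stabilising kappa-casein, was the least abundant, at 12051, 9916, 9187, 11078 and 12056. Relative to their means, the ratios of the other caseins to Csn2 varied less between glands than those caseins did alone. The ratio of Csn1s1 to Csn2 was 0.893 ± 0.0446, a coefficient of variation (CV, the SD over the mean) of 4.998%, whereas Csn1s1 alone had a CV of 14.8%. The ratio of Csn3 to Csn2 had a CV of 6.74%, beside 11.8% for Csn3 alone. The ratio of Csn1s2a to Csn2 varied more, from 0.751 in gland 3 to 1.16 in gland 1, with a CV of 15.8%, beside 22.6% for Csn1s2a alone. That of Csn1s2b to Csn2 had a CV of 15.4%, beside 21.8% for Csn1s2b alone. These 2 ratios still varied more than Csn2 alone, whose CV was 13.6%.

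Whey and other secreted milk proteins added 18.8% ± 1.59 of summed FPKM, in single glands 20.8, 17.5, 16.9, 19.8 and 18.8%. Caseins and these proteins together held 47.2% ± 5.16, or 52.2, 42.6, 40.9, 48.8 and 51.5% by gland. Glands 1 and 5 were highest and glands 2 and 3 lowest. Counted in recovered reads, which give long genes more weight, the milk protein share was 33.9% ± 4.35. Lalba, the gene of alpha-lactalbumin and the regulatory subunit of lactose synthase, was at 5436, 3913, 3989.6, 5495 and 4540.3 FPKM. Wfdc18, a small whey-acidic-type protein, was at 6398, 5989, 4419, 6418 and 4084 FPKM. Spp1, which encodes osteopontin, a phosphoprotein of milk and matrix, was at 6553, 5374, 7739, 4247 and 6545 FPKM and was the only one of the 5 most abundant members of this class with its maximum in gland 3. Cel, the bile-salt-stimulated lipase of milk, was among the steadiest on the deposited scale, at 558, 555, 571, 585 and 533 FPKM (CV 3.44%). None of the 5 caseins and none of the 16 measured whey class genes (mean of at least 1 FPKM, of 17 listed) had a CV of 50% or more. Of the 11551 genes 4.65% had, and of those with a mean of at least 5 FPKM 1.18%.

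The promoters of Csn2, Wap and Saa3 are shown because these genes stand for milk and for inflamed epithelium in this tissue. The 250 bases before the start are given 5′ to 3′ from RefSeq (GRCm38.p6), all 3 on the minus strand, at chr5:87699426-87699675 for Csn2, chr11:6638650-6638899 for Wap and chr7:46715677-46715926 for Saa3. Capitals mark TTCNNNGAA, the palindromic core bound by STAT factors, and a TA-rich stretch, TATATA, both searched on both strands, with overlapping matches joined.
Csn2: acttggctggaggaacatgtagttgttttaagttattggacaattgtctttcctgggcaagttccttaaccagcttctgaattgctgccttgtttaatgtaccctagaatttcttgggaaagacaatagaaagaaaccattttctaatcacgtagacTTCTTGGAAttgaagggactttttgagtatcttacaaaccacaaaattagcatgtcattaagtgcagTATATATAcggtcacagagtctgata
Wap: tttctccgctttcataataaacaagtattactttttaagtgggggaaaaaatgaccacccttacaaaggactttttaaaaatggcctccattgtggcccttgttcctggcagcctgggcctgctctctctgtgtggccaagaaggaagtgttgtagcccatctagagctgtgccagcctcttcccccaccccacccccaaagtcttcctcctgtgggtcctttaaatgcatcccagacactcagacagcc
Saa3: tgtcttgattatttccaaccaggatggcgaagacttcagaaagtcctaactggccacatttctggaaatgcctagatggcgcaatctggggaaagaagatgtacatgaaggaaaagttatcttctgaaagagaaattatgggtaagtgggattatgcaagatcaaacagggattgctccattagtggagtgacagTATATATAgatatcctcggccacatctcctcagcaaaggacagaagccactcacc
In Csn2, TTCNNNGAA begins 93 bases before the start and the TATATA stretch 26 bases before it. In Saa3, the TATATA stretch begins 55 bases before the start and no TTCNNNGAA lies in the window, and in Wap these letters are absent from the window. Of the 50 most abundant genes, 35 matched the RefSeq promoter table with 40 promoters of 300 bases (250 before to 50 after the start). TTCNNNGAA was in 4 of these 40 promoters (10%), those of Csn1s1, Csn1s2a, Csn2 and Glycam1, beside 8.3% of all 32851 promoters and 6.83% of the 11223 promoters whose gene had a mean of at least 1 FPKM. The share was near that of all promoters, and the match of Csn1s2a begins 20 bases after the start. TATATA was in 7 of 40 (17.5%), beside 5.67% of all promoters and 2.26% of the 11223. TATAAA, the canonical TATA box, was in 9 of 40 (22.5%), beside 13.6 and 7.14%. TATATA and TATAAA were added to the search later. A match of letters is a description of the sequence, not evidence of a bound site.

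After caseins and whey proteins, acute phase and antimicrobial proteins were the largest class listed, with 13.9% ± 2.63 of summed FPKM. Their share by gland was 11.6, 14.2, 18.2, 11.9 and 13.7%, highest in gland 3, where the casein share was lowest. The 3 abundant serum amyloid A genes carried most of it, and with Saa4 they lie on chromosome 7 from 46711998 to 46754313. FPKM of Saa2 was 19317, 24712, 30059, 17726 and 22437. That of Saa1 was 18407, 23509, 27055, 17808 and 20425, and both were highest in gland 3 and lowest in gland 4. The fourth gene, Saa4, stood at only 2.14 ± 1.03 FPKM. The ratio of Saa1 to Saa2 was 0.944 ± 0.0415 (CV 4.39%). These 2 genes are close copies, and how reads were divided between them is not given in the sources used here. The ratio of Saa3 to Csn2, an acute phase gene against a casein in the same gland, ranged from 0.297 in gland 1 to 0.593 in gland 3 (CV 31.6%), with gland 2 at 0.461 and glands 4 and 5 at 0.316 and 0.330.

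Other members of this class shared the peak in gland 3 in part. Lcn2, which encodes the iron-siderophore-binding lipocalin 2, was at 7628, 7811, 10098, 8940.3 and 9110.1 FPKM. Orm1, an acid glycoprotein of the acute phase, was at 6872, 6101, 9364, 6593 and 8367 FPKM, and Ltf, the iron-binding milk protein lactoferrin, at 2268, 2289, 2943, 2393 and 2710.2. In all of these gland 3 was highest. Cd14, the co-receptor for LPS, was at 2276, 1415, 2078, 2001 and 1764 FPKM, with its maximum in gland 1 and its minimum in gland 2. Of the 25 measured members (of 29 listed), 12 were highest in gland 3, beside 20.7% of all genes, and 10 after median-of-ratios scaling. When each gland was scaled to its FPKM outside milk proteins, 7 were highest in gland 3 and 8 in gland 5. The 20.7% is that of the deposited scale. Shares of these glands over all genes on the other scales are not given here. Hp, which encodes haptoglobin, was at 449, 472, 749, 604 and 444 FPKM. Chil1, a chitinase-like protein, was more uneven, at 261, 207, 711, 331 and 401 FPKM (CV 51.8%), and C3, the central complement component, at 206, 239, 452, 272 and 339.6. C4b, another complement gene, was at 51.4, 53.6, 103, 55.8 and 51.3 FPKM, with gland 3 apart from 4 close values.

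Calprotectin had another pattern. S100a8 was at 603, 622, 975, 716 and 1449.6 FPKM and its partner S100a9 at 105, 72.7, 183, 137 and 412 FPKM. Gland 5 was highest for both, and gland 3 second. Both are known from neutrophils and also from inflamed epithelium. Markers of neutrophils were low in all glands: the 13 listed genes summed to 11.2, 18.3, 11.04, 21.7 and 12.6 FPKM, with 6 of 13 at a mean of at least 1, and Ly6g, a defining surface marker, at 0.0588, 0.252, 0.189, 0.405 and 0.199. Gland 5, which had the most calprotectin transcript, lay in the middle of the 5 for this sum.

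**Figure D2:**
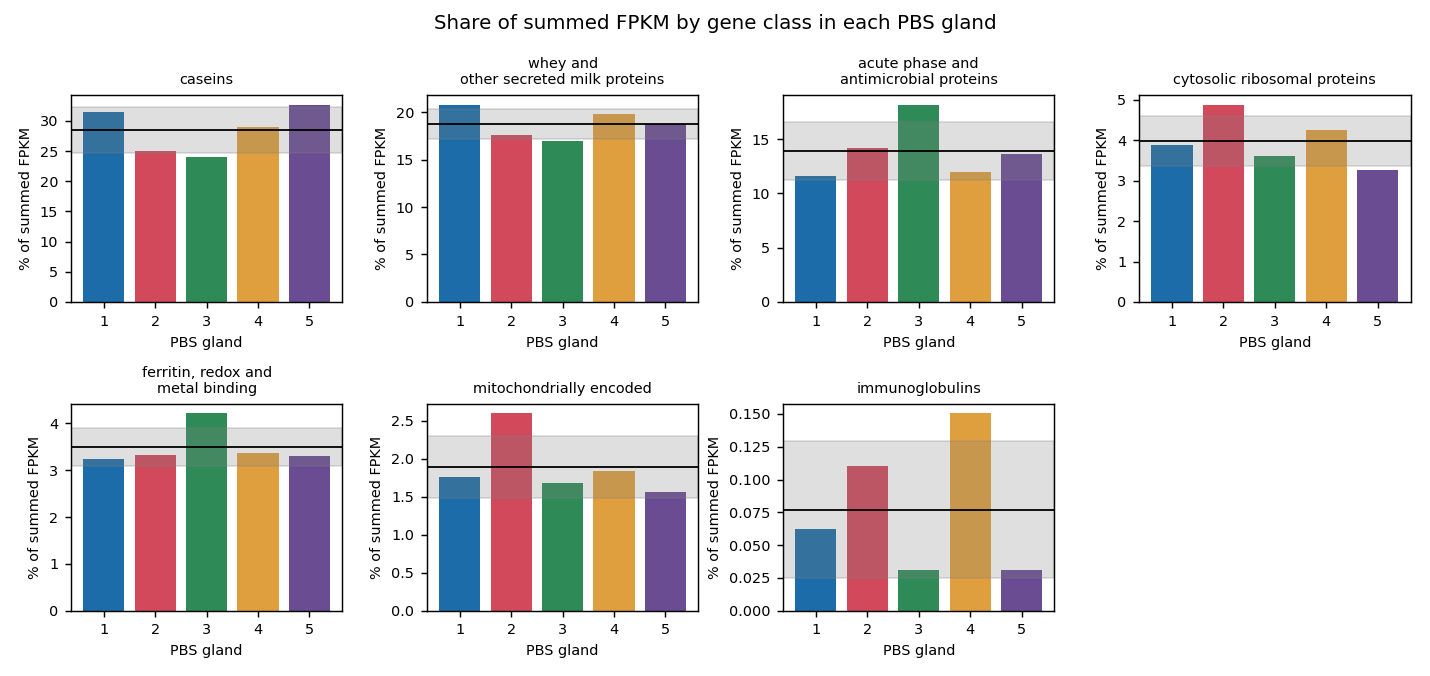
Percent of summed FPKM held by 7 gene classes in each of the 5 PBS glands, each panel with its own axis from 0, the black line at the mean and the grey band at ± 1 SD. The casein share was lowest and the acute phase share highest in gland 3 (23.99% and 18.2%), gland 2 was highest for mitochondrial and ribosomal protein genes (for the latter gland 1 after median-of-ratios scaling), and immunoglobulins were highest in glands 4 and 2.

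Genes of iron storage, redox defence and metal binding held 3.49% ± 0.408 of summed FPKM, in single glands 3.24, 3.32, 4.21, 3.37 and 3.30%, so that gland 3 stood above 4 close values on the deposited scale. Outside milk proteins the shares were 6.77, 5.77, 7.13, 6.58 and 6.80%, and summed values after median-of-ratios scaling were 23695, 18383, 26702, 21762 and 24373. Gland 3 was highest on both of these scales but no longer apart from the others, and gland 2 was the low one. Fth1, the heavy chain of the iron store ferritin, was at 13149, 12442, 16263, 12872 and 13101 FPKM. Ftl1, the light chain, was at 2616, 2323, 2831, 2537 and 2559. The metallothioneins Mt1 and Mt2, small zinc-binding proteins that lie beside each other on chromosome 8, were abundant as well. FPKM of Mt1 was 1824, 1966, 2574, 1957 and 2001, and FPKM of Mt2 was 1069.5, 1477, 2311, 1594 and 1755. Gland 3 was highest for each of these 4 genes on the deposited scale, and for Fth1, Mt1 and Mt2 after either scaling. Ftl1 was then highest in gland 5 (median-of-ratios scaling) or gland 1 (outside milk proteins). Gland 3 was the maximum of 8 of the 21 genes of the class as deposited, beside 20.7% of all genes. After median-of-ratios scaling it was the maximum of 6, and gland 1 was that of 11. The shares of these glands over all genes on that scale are not given here, so these counts are a description only.

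Ribosomal protein and mitochondrially encoded genes had their maximum in gland 2 on the deposited scale, though ribosomal genes not after median-of-ratios scaling. Translation factors were highest in gland 4, at 1.18% of summed FPKM beside 1.16% in gland 2. Cytosolic ribosomal protein genes held 3.89, 4.88, 3.61, 4.27 and 3.26% of summed FPKM and mitochondrially encoded genes 1.75, 2.60, 1.68, 1.84 and 1.56%. Gland 2 was highest for 77 of 83 measured ribosomal protein genes and 12 of 12 mitochondrial genes, beside 49.7% of all 11551 genes. After median-of-ratios scaling these counts were 27 of 83 and 11 of 12, beside 20.9% of all genes. Gland 1 became highest for 40 ribosomal genes, and its share over all genes on that scale is not given here. The position of gland 2 thus depended on the scaling for ribosomal genes and not for mitochondrial ones. The most abundant mitochondrial transcript, mt-Co1, a subunit of cytochrome oxidase, was at 4348, 5722, 3752, 4185 and 3647 FPKM, and mt-Cytb, the cytochrome of complex III, at 2902, 4036, 2648, 2948 and 2441. Eef1a1, an elongation factor of translation, was steadier, at 2999, 2948, 2773, 3293 and 2630.2 FPKM (CV 8.56%). Nuclear-encoded genes of oxidative phosphorylation held 0.804% ± 0.0955, also with gland 2 highest. Of FPKM outside milk proteins they held 1.67% in gland 4 and 1.64% in gland 2, so that gland 4 was then highest.

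Protein-coding genes held 98.3% ± 0.540 of summed FPKM and long noncoding genes 0.936% ± 0.520. By gland the long noncoding share was 0.692, 0.932, 1.83, 0.728 and 0.503%. Most of its mean, though not of the share in every gland, was 1 gene, Gm42418, at 2595, 2681, 9435, 2210.4 and 1393 FPKM. Gene tables of RefSeq list it under the name of a ribosomal RNA pseudogene on chromosome 17. Gland 3 was 3.52 times the next gland, the same gland that was highest for the acute phase and ferritin classes on the deposited scale, and its part in those results was not tested. Without it, long noncoding genes held 0.376% ± 0.0873. Malat1, an abundant nuclear RNA, was at 165, 433, 276, 279.7 and 189.8 FPKM, highest in gland 2 and lowest in gland 1.

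Genes of milk fat made up less of the total. The 13 proteins of the milk fat globule and lipid droplet held 0.614% ± 0.0811 of summed FPKM, with a median CV of 10.9%. Plin2, the coat protein of lipid droplets, was at 938, 781, 724, 779 and 749 FPKM, and Mfge8, a globule membrane protein, at 501, 528, 658, 516 and 499. Xdh and Btn1a1, whose products bind each other at the globule surface, had means of 360.1 ± 42.7 and 215 ± 19.3 FPKM (SD, n = 5). The least even of them was Fabp3, a fatty acid-binding protein, at 1571, 1535, 515, 858 and 501 FPKM (CV 53.1%). Glands 1 and 2 were high and glands 3 and 5 low for it.

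Fatty acid and triglyceride synthesis, with 29 of 29 genes measured, held 0.349% ± 0.0383. Scd1, which desaturates fatty acids, was at 699, 391, 894, 451 and 589.8 FPKM. Fasn, fatty acid synthase, was at 126, 269.6, 261, 176 and 164 FPKM, and Olah, the thioesterase that ends synthesis at medium chains in the mammary gland, was at 198, 201, 158, 193 and 187. Scd1 was highest in gland 3 and the other two in gland 2. Lactose synthesis and glucose entry, 12 genes, held 0.0482% ± 0.00938. In this list B4galt1, the catalytic partner of alpha-lactalbumin, was at 81.3, 130.4, 208, 106 and 119.6 FPKM, highest in gland 3, where Lalba was near its lowest.

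The 53 genes of the secretory pathway held 0.676% ± 0.0564, with a median CV of 12.8%. Xbp1, a transcription factor of secretory cells, was at 497, 385, 407, 555 and 467 FPKM. Hspa5, the main chaperone of the endoplasmic reticulum, was at 275, 278, 419.9, 422 and 357 FPKM, with glands 3 and 4 high and glands 1 and 2 low, and Calr, a calcium-binding chaperone, was highest in gland 3 at 268, 291, 474, 361 and 402. Of 18 listed genes of prolactin signalling 16 were measured, with a median CV of 13.4%, beside 16.01% over all 11551 genes. By level that median was 14.03% at 5 to 20 FPKM and 11.3% at 20 to 100. Prl itself, the hormone made in the pituitary, was at 0 in all glands. Elf5, a factor of alveolar cell identity, was at 208 ± 18.4 FPKM, Stat5a at 10.99 ± 1.68 and Prlr, the prolactin receptor, at 9.25 ± 1.29 (SD, n = 5).

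Spread between glands was small for most genes. Over the 11551 genes with a mean of at least 1 FPKM the median CV was 16.01%, and 14.6% after subtraction of the variance expected from read counting. By mean level the median CV was 22.6% at 1 to 5 FPKM, 14.03% at 5 to 20, 11.3% at 20 to 100, 13.4% at 100 to 1000 and 17.3% at 1000 or more. The most abundant genes were therefore not the steadiest, although counting adds least to them. For 370 genes (3.20%) the spread was no larger than counting gives.

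A CV of 50% or more was found for 537 of 11551 genes, 4.65% of those measured. Of these, 454 had a mean below 5 FPKM, 68 were immunoglobulin segments and 15 were T cell receptor segments. Genes and segments of low mean can reach 1 FPKM through a single high gland, so these numbers are a description only. Gland 2 was the highest gland for 376 of the 537 (70.0%), and glands 2 and 4 were the highest pair for 321 (59.8%), beside 25.5% of all genes. Without gland 2 the share of genes with such a CV was 2.84%, and without glands 2 and 4 it was 2.12%. Among genes with a mean of at least 100 FPKM, 7 passed this CV: Gm42418, Fabp3, Chil1, S100a9, Igkc, Lyz2 and Angptl4, the last an inhibitor of lipoprotein lipase at 232, 102, 46.7, 161 and 126 FPKM.

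Over all measured genes, gland 2 was the highest of the 5 for 49.7% and gland 5 the lowest for 38.8%, followed by gland 1 with 30.8% of minima. This order was tied to scale: after median-of-ratios scaling, whose factors were 0.931, 1.16, 1.02, 1.02 and 0.905, gland 2 was highest for 20.9% and gland 5 lowest for 19.7%. The glands with the largest milk protein shares, 1 and 5, had the smallest factors. On the deposited scale, the 10 genes of lowest spread were Atl3, Dnajc14, Got2, Tmed5, Trappc8, Msra, Yes1, Reep3, P2rx4 and Setd3. Reep3 was at 13.3, 11.2, 12.6, 12.6 and 14.3 after median-of-ratios scaling, so its low spread was tied to the deposited scale. Atl3, an endoplasmic reticulum-shaping GTPase, was at 22.5, 22.7, 22.5, 22.5 and 23.1 FPKM, a CV of 1.17%. Got2, a mitochondrial aminotransferase, was at 34.4, 33.5, 33.5, 33.6 and 33.02 FPKM. These 10 were picked for their low spread, so a comparison of other genes with them has a fixed outcome. Of usual reference genes, also on the deposited scale, Actb, cytoplasmic actin, was at 554, 584, 624, 544 and 574 FPKM (CV 5.40%). Gapdh, a glycolytic enzyme, was at 442, 450.4, 595, 478 and 609 (CV 15.6%). The median CV of genes at 100 to 1000 FPKM was 13.4%.

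**Figure D3:**
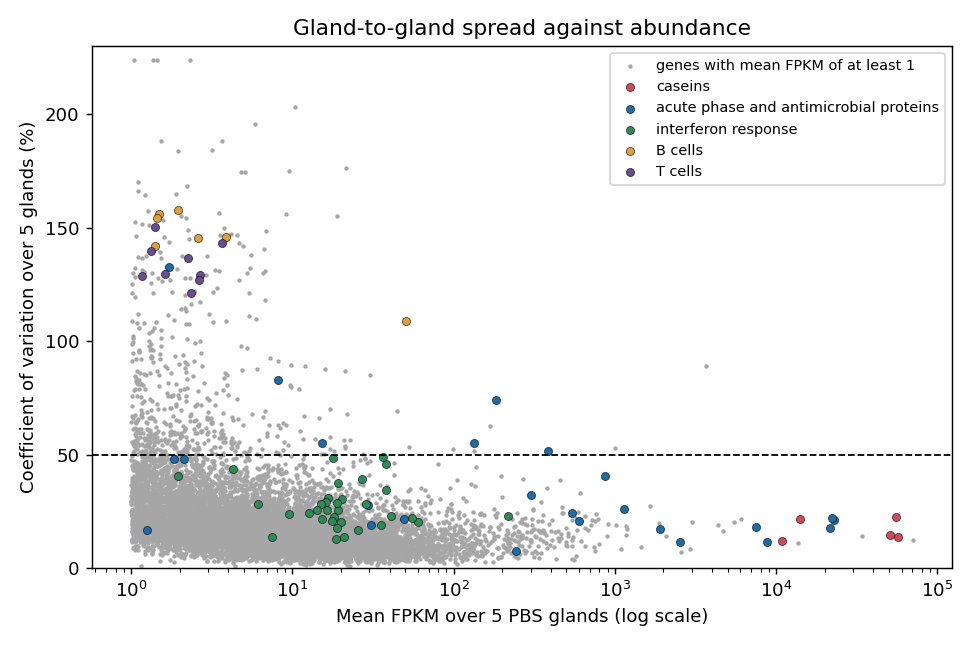
CV over the 5 PBS glands (%) against mean FPKM (log scale) for 11551 genes in grey, with 5 gene lists in colour and the dashed line at a CV of 50%. Only genes with a mean of at least 1 FPKM are drawn. Caseins and interferon-response genes lie below the line and 6 of 25 acute phase genes above it.

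Lymphocyte genes were high in glands 2 and 4. Only 7 of 11 B cell markers and 9 of 13 T cell markers had a mean of at least 1 FPKM, which they reached mainly through those glands. Summed FPKM of the whole B cell list was 2.01, 146, 6.37, 147 and 28.7. That of the T cell list was 3.11, 69.02, 2.86, 34.3 and 1.61. Glands 2 and 4 were high in both, and glands 1 and 3 low, with gland 5 low for T cells. Ighm, the heavy chain of IgM, made up most of the B cell sum in every gland. Without it the other 10 markers summed to 0.494, 52.6, 0.644, 23.3 and 0.326 FPKM, with gland 5 the lowest. Cd79a, a signalling chain of the B cell receptor, was at 0.190, 12.7, 0, 6.41 and 0.0429 FPKM. Cd3e, the signalling chain of the T cell receptor, was at 0.193, 7.10, 0.0412, 3.63 and 0.348 FPKM. In glands 1, 3 and 5 these defining markers were at or near 0.

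Ligands of the receptor CCR7 were highest in the same 2 glands. Ccl21a, which guides T cells and dendritic cells into the node, was at 0, 66.9, 0, 27.2 and 0.359 FPKM, and Ccl19, which shares its receptor, at 0, 7.67, 0, 3.29 and 0.242. Of the other genes listed for lymph node stroma, Cxcl13, Madcam1 and Fcgbp had another order. Cxcl13, which attracts B cells, was present in every gland, at 60.9, 131, 90.6, 83.1 and 31.9 FPKM, with gland 3 above gland 4. Madcam1, an adhesion molecule of vessel walls, was at 8.96, 5.47, 10.8, 2.77 and 9.59 FPKM, highest in gland 3 and lowest in gland 4. Fcgbp, an IgG Fc-binding protein, was at 1.53, 2.30, 4.48, 2.49 and 2.20 FPKM, also highest in gland 3. Class II antigen presentation genes had glands 2 and 4 highest: Cd74, the invariant chain, was at 70.9, 174, 67.5, 134 and 51.3 FPKM and H2-Eb1 at 15.1, 37.6, 14.6, 28.7 and 8.81. The amount of lymph node in each tissue piece was not recorded in the labels, and its part in these values was not tested.

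Immunoglobulin genes held 0.0770% ± 0.0523 of summed FPKM, and the highest gland had 4.85 times the lowest. Of 253 listed genes 69 had a mean of at least 1 FPKM and 91 were at 0 in all glands. Constant-region genes did not share an order. Ighm was at 1.51, 93.8, 5.73, 123 and 28.4 FPKM, high in glands 4 and 2. Igha, the heavy chain of IgA, the main antibody of milk, was at 69.6, 8.83, 41.4, 21.3 and 9.79 FPKM, high in glands 1 and 3. Igkc, the kappa light chain, was at 162, 198, 76.7, 326 and 71.8 FPKM and Jchain, which joins IgA and IgM subunits, at 19.4, 17.4, 7.68, 35.4 and 5.16, both highest in gland 4. Single variable segments differed by gland, such as Igkv15-103 on chromosome 6, a kappa segment at 0.956, 0.854, 0.170, 1.83 and 48.1 FPKM, seen almost only in gland 5. Segments share sequence, and the counting rule for shared reads is not given in the sources used here.

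**Figure D4:**
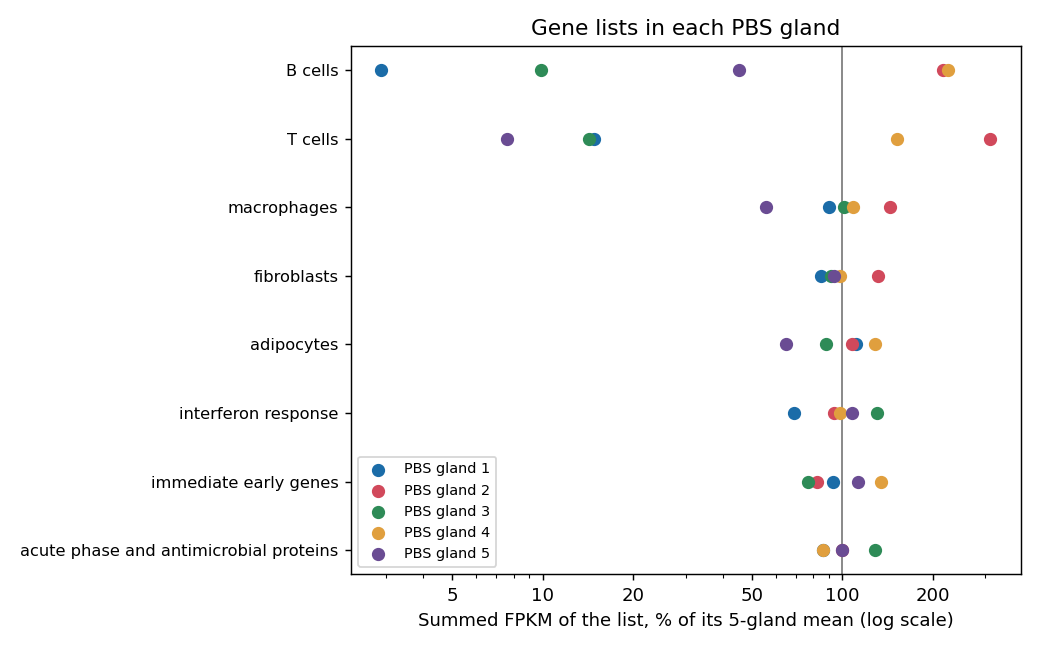
Summed FPKM of the measured genes of 8 lists in each PBS gland, as a percent of the mean over the 5 glands (log scale). B and T cell lists spread over more than 10-fold with glands 2 and 4 highest, while the other 6 lists stay between 50 and 150%.

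The 14 luminal epithelium markers summed to 1264, 1186, 1135, 1156 and 1207 FPKM. Their median CV was 11.4%, beside 16.01% over all 11551 genes, 11.3% over genes at 20 to 100 FPKM and 13.4% at 100 to 1000. Epcam, an epithelial adhesion protein, was at 328, 244, 231, 262 and 259 FPKM, Krt8 at 121, 152, 129, 114 and 131 and its keratin partner Krt18 at 146, 111, 141, 142 and 149.6. Krt18 was lowest in gland 2, where Krt8 was highest. Cldn4, a claudin of tight junctions, was the most uneven of the list, at 24.03, 12.2, 22.4, 25.6 and 46.3 FPKM with gland 5 highest. Myoepithelial markers summed to 447, 587, 499, 444 and 595 FPKM, with Acta2, smooth muscle actin, at 230.02, 292, 256, 227 and 315 and Krt14 at 18.04 ± 1.68 (SD, n = 5).

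Stromal lists differed moderately and by gland. Their counts stand beside those over all measured genes, of which gland 2 was highest for 49.7% and gland 5 lowest for 38.8%. After median-of-ratios scaling these shares were 20.9 and 19.7%. Adipocyte markers summed to 1445, 1409.9, 1154, 1672 and 844 FPKM, and 9 of 13 were lowest in gland 5, 8 of 13 after median-of-ratios scaling. Fabp4, the fatty acid-binding protein of fat cells, was at 677, 621, 512, 675 and 379 FPKM, and Cfd, the fat-derived complement factor adipsin, at 387, 424, 317, 569 and 204. Macrophage markers summed to 92.6, 149, 104, 112 and 57.2 FPKM, with 8 of 11 highest in gland 2 and 8 of 11 lowest in gland 5, 7 and 8 after that scaling. C1qa, a chain of complement C1q made by tissue macrophages, was at 25.3, 46.96, 28.03, 35.3 and 14.00 FPKM. Lyz2, lysozyme of myeloid cells, followed the macrophage list in being lowest in gland 5 and highest in gland 2, at 139, 239.7, 75.7, 160.2 and 53.6. Fibroblast markers were highest in gland 2 for 12 of 13 genes, but for 5 of 13 after median-of-ratios scaling. Col3a1, a fibrillar collagen, was at 48.8, 82.6, 54.1, 57.9 and 71.8 FPKM. Hemoglobin genes, which are known from red blood cells, summed to 52.2, 67.6, 31.2, 73.2 and 18.9 FPKM, highest in gland 4 and lowest in gland 5.

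Genes of the interferon response were mostly lowest in gland 1, and mostly highest in gland 3 on the deposited scale. All 34 listed genes in the table were measured and none reached a CV of 50%. Of all genes 4.65% did, and of genes with a mean of at least 5 FPKM, as most of the 34 had, 1.18% did. Of the 34, 22 were highest in gland 3, 29 lowest in gland 1 and none highest in gland 1. Over all 11551 genes these shares were 20.7, 30.8 and 8.55%. Summed FPKM was 657, 893, 1240.3, 929 and 1025. After median-of-ratios scaling 18 were highest in gland 3, 13 in gland 5, and 22 were lowest in gland 1. With FPKM rescaled outside milk proteins these counts were 15, 14 and 26. The summed values were then 1130 in gland 3 and 1098 in gland 5. The shares over all genes above are those of the deposited scale. Shares of these glands on the other scales are not given here. Bst2, which tethers budding viruses, was at 147, 197, 269, 217 and 262 FPKM. Irf7, a transcription factor of the type I interferon loop, was at 39.4, 64.3, 71.3, 63.3 and 63.3 FPKM, with gland 1 lowest and apart from the others on the deposited scale. The immunity-related GTPases Igtp and Iigp1 act at pathogen vacuoles. Igtp was at 22.3, 28.6, 67.8, 34.6 and 29.9 FPKM. Iigp1 was at 25.9, 26.2, 68.1, 36.1 and 33.2 FPKM, and gland 3 was the highest for both. Rsad2, the antiviral enzyme viperin, had its maximum in gland 5 instead, at 12.4, 13.98, 18.9, 11.9 and 32.7.

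Immediate early genes, which respond within minutes to stress and handling, had another order. Summed FPKM of the list was 343, 304, 282, 492 and 415, and 12 of its 16 measured genes were highest in gland 4 or 5 while 9 were lowest in gland 3. Under median-of-ratios scaling 13 of the 16 were highest in gland 4 or 5 and 9 lowest in gland 3. The shares of these glands over all genes on that scale are not given here. Jun, a subunit of the AP-1 transcription factor, was at 20.4, 10.6, 12.5, 38.7 and 24.1 FPKM, and Ier3, a stress-induced regulator of cell survival, at 47.6, 26.99, 28.5, 93.5 and 69.3. Tnf, the inflammatory cytokine, was highest in gland 4, at 5.63, 6.22, 3.93, 16.9 and 7.74 FPKM, and Lif, a cytokine of the interleukin-6 family known from involuting glands, had the same high pair 4 and 5, at 9.27, 6.24, 5.58, 20.6 and 16.2.

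Among 38 cytokines and chemokines, 30 were measured and 8 of these had a CV of 50% or more (26.7%, beside 4.65% of all genes). Of these, Ccl19, Ccl22, Ccl3 and Ccl4 had means of 2.24, 1.67, 1.18 and 1.11 FPKM, and 10.1% of genes at 1 to 5 FPKM had such a CV. Ccl19 and Ccl21a were at or near 0 outside glands 2 and 4 and reached the filter through those glands. The count is therefore a description only. The most abundant was Cxcl1, which attracts neutrophils, at 555, 428, 335, 644 and 389 FPKM. Ccl28, which draws IgA-secreting cells to the gland, was at 66.05, 148, 149, 135 and 101 FPKM, lowest in gland 1, where Igha was highest. Cxcl2, a second neutrophil attractant, was at 112, 93.5, 55.5, 129 and 91.3 FPKM with the same 2 highest glands as Cxcl1, 4 and 1. Il1b was at 8.77, 6.43, 6.24, 6.14 and 7.28 FPKM and Il6 at 0.0509, 0.218, 0.0544, 0.234 and 0.115, close to the level of a few reads per kilobase.

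Some genes stood out in single glands. In gland 1 these were Arrdc3, an arrestin-domain protein, at 46.8, 11.5, 13.7, 23.5 and 13.1 FPKM, and Il1f9, an epithelial cytokine of the interleukin-1 family, at 49.6, 23.6, 11.9, 26.9 and 28.2. Thbs1, a matrix glycoprotein, was also highest there, at 17.9, 7.54, 2.62, 7.499 and 8.12. In gland 2 Lyz1 stood out, a lysozyme gene close in sequence to Lyz2, at 5.73, 19.98, 4.35, 6.69 and 3.81 FPKM. In gland 3 Ephx1, an epoxide hydrolase, was at 9.94, 16.7, 34.1, 15.04 and 14.4 FPKM and Hs3st3b1, a heparan sulfate sulfotransferase, at 7.83, 10.6, 20.7, 8.31 and 10.3. In gland 5 they were S100a9 and Cldn4, already described, with Plk3, a stress-responsive kinase, at 4.49, 6.98, 5.16, 6.45 and 12.1 FPKM and Mex3d, an RNA-binding protein, at 6.84, 4.48, 4.76, 6.93 and 12.2.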

How the data were processed

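The 5 PBS columns of a deposited table of 10 mammary gland libraries were used. Per the labels, total RNA of frozen gland was used for the libraries, and strandedness is not stated. The submitters' processing notes list STAR 2.5, HTSeq 0.6.1, DESeq2 (version given as 2) and build mm10. The deposited FPKM are the authors' values, used as they stand. A second deposited table covers 908 genes: its raw counts and gene lengths, per the file headers, gave each library's depth, and its normalized signal, log2 fold changes and p-values, all made by the authors, were not used. Whole reads were recovered for all 21882 genes above 0 through a gene length, taken as the smallest length that made every library's value whole within 0.002 reads, and equalled the deposited length for 906 of 908 genes. All 10 libraries served for the length search only. The recovered reads were at least 99.986% of each depth. A gene of 1 kb with 1 read had 0.0553 to 0.0636 FPKM, which covers counting error only, since PCR copies cannot be told apart.

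Symbols, types and coordinates came from GENCODE M21 (GRCm38) for 34490 genes. Shares are percent of summed FPKM. CV, and CV beyond counting error as a moment estimate, were computed for genes with a mean of at least 1 FPKM, and the calculation was tested on simulated data. A single group was described, so no test between groups was run and no p-value is given. Single glands were only held against Dixon's limit. Named genes were the 30 most abundant, the 3 most abundant of each list, those of highest and lowest spread among genes of at least 5 FPKM and the 5 most specific to each gland. Other list members and ratios were named after their values were seen. The members and lists were chosen with earlier results of these data known. Close copies (Saa1 and Saa2, Orm1 to Orm3, Lyz1 and Lyz2, hemoglobins, ribosomal protein genes and Fabp3 with pseudogenes) and overlapping genes are uncertain, because the counting settings are not given in the sources used here. Alternatives were other filters, scalings, pseudocounts, measures of spread and gene sets, recovered reads, and leaving out glands. Python 3.11.15, numpy 2.4.6, pandas 2.3.3 and matplotlib 3.10.9 were used.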

Additional observations from a re-analysis of the deposited data

Results flagged for a closer look

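Of 219 values tested, 29 had 1 gland apart from the other 4, by a gap to the nearest gland over 0.71 of the range (Dixon's limit for 5 samples). Chance flags about 1 group in 20 even where nothing differs, and 655 of all 11551 measured genes (5.67%) met the rule, 329 of them through gland 2. The 219 values include genes chosen for high spread or for standing out in 1 gland, so their count is not to be read against that percentage. The values are on the deposited scale. After median-of-ratios scaling 15 of the 29 had the same gland apart on the same side, and with FPKM rescaled outside milk proteins 15 had.

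Gland 2 was apart on the high side for the share of mitochondrially encoded genes (2.60% of summed FPKM, others 1.56 to 1.84%) and of cytoskeleton genes (0.653%). It was also high for mt-Nd2 (1559 FPKM), Akt1, a kinase of growth signalling (66.9), Csf3r, the receptor of granulocyte colony-stimulating factor (3.78), Tk1, a thymidine kinase of dividing cells (5.09), and Lyz1 (19.98). It was low for Krt18 (111 FPKM, others 141 to 149.6). Among rearranging segments it was high for Igkj3 (26.3), Igkj2 (34.5), Igkv5-43 (39.1) and Trbd1 (88.9 FPKM). Igkj3, Igkj2 and Trbd1 are under 50 bases long, so that few reads make these values. Under either other scaling gland 2 was no longer apart for both class shares, mt-Nd2, Akt1, Csf3r and Krt18. It remained apart for Tk1, Lyz1 and the segments named here. Gland 1 became highest for cytoskeleton genes and Akt1 after median-of-ratios scaling.

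Gland 3 was apart on the high side for the class of ferritin, redox and metal binding (4.21%, others 3.24 to 3.37%). Outside milk proteins the shares were 6.77, 5.77, 7.13, 6.58 and 6.80%, and after median-of-ratios scaling the sums were 23695, 18383, 26702, 21762 and 24373, with gland 3 highest but no longer apart. Neither Fth1 nor Mt1 had gland 3 apart after either scaling, while Gm42418, C4b, Ephx1 and Hs3st3b1 had. The genes with gland 3 apart as deposited were Fth1 (16263 FPKM), Mt1 (2574), Gm42418 (9435), Mfge8 (658), C4b (103), Igtp (67.8), Iigp1 (68.1), Ephx1 (34.1) and Hs3st3b1 (20.7 FPKM).

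In the other glands fewer values stood out. Gland 1 was high for Plin2 (938 FPKM) and low for Irf7 (39.4) and Reep3 (12.4, others 12.9 to 13.01 FPKM, a narrow range). It was not apart for Plin2 and Reep3 after either scaling, nor for Irf7 after median-of-ratios scaling. Gland 4 was high for the kappa segments Igkv16-104 (20.8), Igkv4-59 (18.96) and Igkv1-117 (18.2 FPKM), and gland 5 for Igkv15-103 (48.1 FPKM).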

How the results depend on the processing

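Shares of caseins, of caseins and whey proteins and of the 18 other listed classes moved by less than their SD under every other choice of gene set on the FPKM scale, while the share of long noncoding genes was 0.936% with and 0.376% without Gm42418. In recovered reads caseins held 22.9%, caseins and whey proteins 33.9%, and 78.6 genes held 50%, and 14 of the 18 other class shares moved by more than their SD. With no filter the median CV was 31.5% and 38.5% of genes had a CV of at least 50%; with a mean of at least 5 FPKM 1.18% had, and by the SD of log2(FPKM + 1) 2.26%. Under median-of-ratios scaling gland 2 was highest for 20.9% and gland 5 lowest for 19.7% of genes, and with FPKM rescaled outside milk proteins gland 5 was lowest for 22.8%. Without glands 2 and 4, 2.12% had a CV of at least 50%. The causes were not tested. Leaving out single glands gave 27.3 to 29.5% for caseins, 45.9 to 48.7% for caseins and whey proteins, 8.0 to 8.75 genes to 50%, a median CV of 13.8 to 16.8% (12.2 to 15.4% beyond counting), 2.84% (without gland 2) to 5.39% of genes with a CV of at least 50%, gland 2 highest for 51.9 to 59.6% and gland 5 lowest for 40.1 to 53.3%. For single genes named by rule, the CV moved by over 1.5 times for 36 of 171 under median-of-ratios scaling, 20 with FPKM rescaled outside milk proteins, 8 to 22 on leaving out 1 gland, and 38 of 170 without glands 2 and 4. Each of the 7 genes of at least 100 FPKM with a CV of 50% or more was under 50% without 1 gland: Chil1 (28.02%), Gm42418 (26.5%) and Angptl4 (36.4%) without gland 3, S100a9 (37.7%), Lyz2 (44.1%) and Fabp3 (46.4%) without gland 5, and Igkc (49.4%) without gland 4. The set without Gm42418 was added after the data were seen. No paired analysis was possible because a single group was described and no test was made. Below 5 FPKM counting error limits what can be said of single genes.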

Other observations

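Transport genes of the secretory cell were present in every gland. The 17 solute carriers listed summed to 605, 742, 751, 654 and 742 FPKM, with a median CV of 19.3%, beside 16.01% over all 11551 genes. Slc3a2, the heavy chain of amino acid exchangers, was at 126, 120.2, 191, 142 and 157 FPKM and Slc28a3, a nucleoside transporter, at 78.5, 139, 144, 99.9 and 117. Slc34a2, a phosphate carrier, was the least even, at 26.9, 72.5, 49.4, 22.8 and 42.97 FPKM with gland 2 highest. Genes of calcium transport into milk summed to 642, 643, 589, 617 and 658 FPKM, and Casr, the calcium-sensing receptor, was at 0 in all 5 glands.

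Cell division genes were low. Of 24 listed, 12 had a mean of at least 1 FPKM, and Mki67, a marker of dividing cells, was at 1.46, 1.58, 0.998, 1.22 and 1.85 FPKM. Pcna, a replication clamp that is also used in DNA repair, was at 23.1, 28.9, 25.3, 29.6 and 23.3 FPKM. Hormone-sensing cell genes were low as well, with Esr1, the oestrogen receptor, at 1.90, 2.16, 3.43, 3.05 and 3.44 FPKM and Pgr, the progesterone receptor, at 0.0161, 0.0774, 0.112, 0.0923 and 0.109. Granule genes of immature neutrophils had their maximum in gland 4: Ngp was at 0.772, 0.779, 0.437, 5.80 and 0.821 FPKM and Elane, neutrophil elastase, at 0.120, 0.0644, 0.129, 1.93 and 0.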
